A study of Mus musculus with 14 samples.

Results

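The guanylate-binding proteins (GBPs) were followed in macrophages sorted from the colonic lamina propria of mice with and without the interleukin-10 receptor. The family was taken by name from the deposited table of read counts, which lists 24982 genes in capitals. Its numbered members from GBP2, GBP3, GBP4 and GBP5 through GBP6, GBP7, GBP8 and GBP9 to GBP10 and GBP11 gave 10 genes, of which 4 lie in a cluster on chromosome 3 and 6 in a cluster on chromosome 5. All 10 were among the 13136 genes that passed the filter on low counts. *Gbp10* and *Gbp11* passed through the *Il10ra*-deficient mice, since only 1 WT mouse for the former and 0 for the latter of the 4 had 10 reads or more. *Gbp2b*, an eleventh gene of the family that the table also lists, is given beside the members and is not counted with them.

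All mice were C57BL/6 animals of 5 weeks that carried *Cdcs1*, a colitis susceptibility locus. WT mice carried it alone, IL10RAKO mice were also *Il10ra* −/−, and DKO mice were *Il10ra* −/− and *Ccr2* −/− (n = 4 mice each, 1 library a mouse). A further WT mouse (mouse 11) was left out of the main fit and served in an alternative fit only. A single CCR2KO mouse (*Cdcs1*, *Ccr2* −/−, mouse 6) entered no test. Cells from colon and cecum were sorted as live CD45+ cells that carried CD64 and CD11b and lacked Ly6G and CD103, and among these as MHCII+ Ly6C- cells, the mature macrophage fraction. The deletions were in the whole animal and not in macrophages alone, and *Il10ra* −/− mice on this background are a model of spontaneous colitis. *Cdcs1* lies on chromosome 3, and whether the *Gbp* cluster of that chromosome falls within the introgressed stretch is not given in the sources used here. Every group carried the locus.

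The targeted genes were examined first. WT macrophages had 284.2 ± 70.1 CPM of *Il10ra*, IL10RAKO macrophages 7.40 ± 2.67 and DKO macrophages 5.31 ± 2.11 (mean ± SD over 4 mice each), where CPM is the count scaled to a library of 1000000 reads after TMM normalization. For *Ccr2* the WT level was 592.6 ± 79.9 CPM, the IL10RAKO level 475.4 ± 127.5 and the DKO level 5.66 ± 1.22. In IL10RAKO mice *Il10ra* ran from 4.88 to 11.2 CPM and in DKO mice from 3.41 to 7.58, below each of the 4 WT mice. The 14 libraries held 12153000 to 21216468 counted reads, and 3 reads, taken as the smallest number the depth can show, came to 0.124 to 0.2196 CPM. That floor covers counting error only.

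GBPs are large GTPases of the dynamin superfamily that cells make in response to interferon, above all interferon gamma. They gather on the membranes of vacuoles that hold bacteria or parasites and on bacteria free in the cytosol, where they form coats, break the vacuole open and bring lipopolysaccharide into contact with caspase-11, the sensor of the noncanonical inflammasome. Induction runs through transcription factors that bind the gamma-activated site (GAS) and, like IRF1, the interferon-stimulated response element (ISRE). Interleukin-10 restrains the response of macrophages to microbial products, and the colonic lamina propria is a tissue in which these cells meet such products constantly.

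The RefSeq promoter table (GRCm38.p6) held a window of 300 bases, from 250 before the transcription start to 50 after it, for 4 of the 10 members, *Gbp2*, *Gbp3*, *Gbp5* and *Gbp7*, and for *Gbp2b*. Windows were searched on both strands for the ISRE core GAAANNGAAA and for the GAS letters TTCNNNGAA, where N is any base. The first window of each of these 5 genes held the ISRE core, which was found in 3.44% of all 32851 windows of this length. The match began 59 bases before the RefSeq start in *Gbp2*, 137 in *Gbp2b*, 165 in *Gbp5* and 53 in *Gbp7*, while *Gbp3* held 2 matches that overlap, at 45 and 39 bases. The RefSeq starts of *Gbp2*, *Gbp3* and *Gbp5* lie inside the GENCODE bounds given below, so the 2 sources place these starts differently. A second *Gbp3* window held neither motif. No chromosome 5 member had a window, and a link between a match and a change in counts was not tested. The stretches of 30 bases that carry the ISRE core are shown on the plus strand of chromosome 3 from 5′ to 3′, with the match in capitals. In each it is the reverse complement of the searched core.
*Gbp2*, chr3:142620594-142620623: actcttttagTTTCACTTTCactgtcttaa
*Gbp2b*, chr3:142594700-142594729: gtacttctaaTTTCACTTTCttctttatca
*Gbp3*, chr3:142559992-142560021: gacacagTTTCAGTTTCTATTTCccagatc
*Gbp5*, chr3:142496759-142496788: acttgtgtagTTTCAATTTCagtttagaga
*Gbp7*, chr3:142530273-142530302: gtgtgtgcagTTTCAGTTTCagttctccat

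*Gbp5* and *Gbp7* also held 2 GAS matches each, and a window with both motifs made up 0.454% of all windows, against 8.30% with a GAS match. The stretches that follow hold, in capitals, 1 match of *Gbp5*, which began 52 bases before the start, and both matches of *Gbp7*, which began 106 and 87 bases before it. They do not overlap the ISRE core. A match of letters is a description of the window and not a measured binding site.
*Gbp5*, chr3:142496872-142496901: tggccgttatTTCTCAGAAccaagcacaga
*Gbp7*, chr3:142530229-142530258: tTTCCAGGAAaagcagaagcTTCTCAGAAa

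Members of both clusters were higher in macrophages that lacked *Il10ra*. In IL10RAKO against WT mice, 9 of the 10 members rose and 0 fell at an adjusted p under 0.05 (edgeR quasi-likelihood test, Benjamini-Hochberg adjustment over 13136 genes), where 8.70% of all tested genes rose and 7.10% fell. In DKO against WT mice, again 9 of 10 rose and 0 fell, where 9.23% of all genes rose and 9.22% fell. *Gbp10* was the member that passed in neither comparison. The filter kept *Gbp10* and *Gbp11* through the deficient mice, which favours a higher value there, and *Gbp11* is among the 9. A filter of 10 reads in every library left out these 2 and *Gbp6*. Under it, 6 of 7 members rose in IL10RAKO and 7 of 7 in DKO mice, with median log2 fold changes of 2.25 and 2.40. There, 1730 and 2020 of 10740 genes passed in either direction. The median log2 fold change of the members was 2.67 in IL10RAKO and 2.78 in DKO mice, beside −0.07 and −0.06 over all tested genes. For 9 members, all but *Gbp10*, every IL10RAKO mouse lay above every WT mouse, as did every DKO mouse, a pattern found in 9.45% and 11.2% of all tested genes. The same 4 WT mice serve both comparisons. In bulk samples, more cells that make a transcript and more RNA per cell cannot be told apart.

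**Figure D1:**
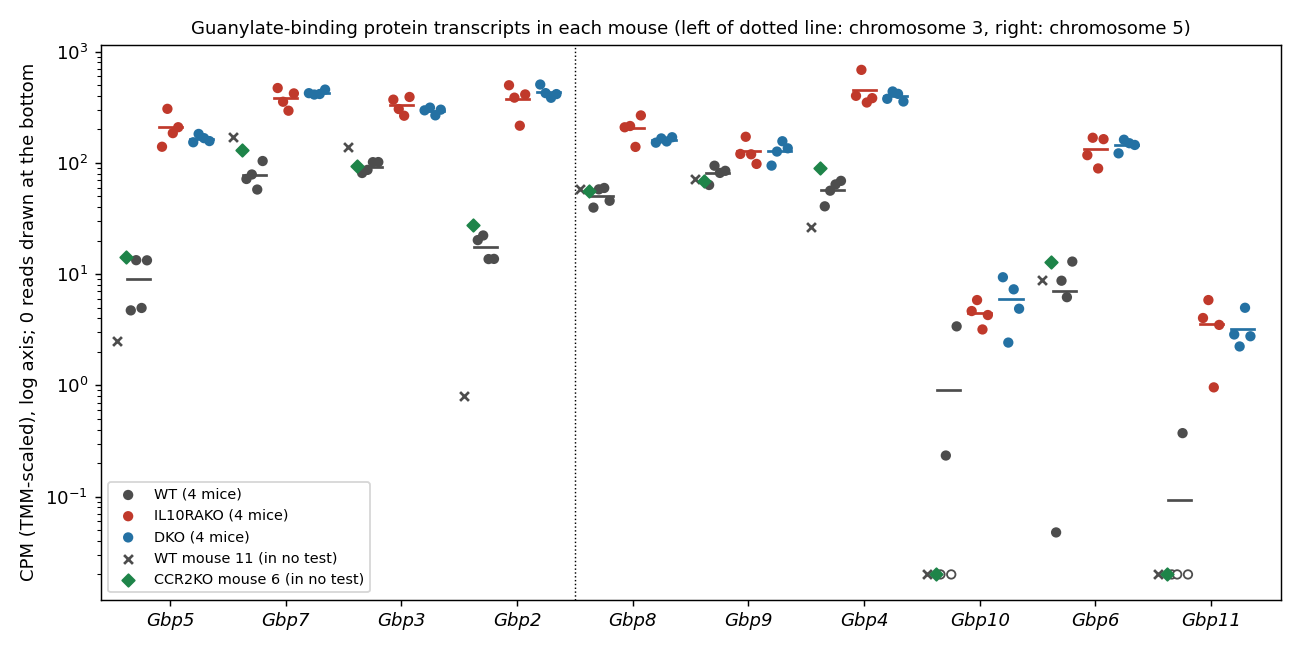
Level of each member in each mouse, in CPM on a log axis, with a bar at the arithmetic mean of 4 mice and open circles at the bottom for mice with 0 reads. A cross marks WT mouse 11 and a green diamond CCR2KO mouse 6, both left out of the main fit. Red (IL10RAKO) and blue (DKO) points lie above all grey WT points for each member but *Gbp10*, where WT mouse 13 (3.39 CPM) reached above IL10RAKO mouse 7 (3.18 CPM) and DKO mouse 9 (2.43 CPM).

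On chromosome 3 (142493978 to 142638008 in GRCm38, which is mm10), the members lie in the order *Gbp5*, *Gbp7*, *Gbp3*, *Gbp2* on the plus strand, with *Gbp2b* between the last pair. *Gbp2* (ENSMUSG00000028270.12, 142620602 to 142638008), whose protein collects on vacuoles of the parasite Toxoplasma gondii, was at 20.2, 22.3, 13.7 and 13.7 CPM in WT mice 4, 5, 10 and 13. It was at 498.6, 385.7, 215.8 and 412.3 CPM in IL10RAKO mice 1, 2, 7 and 8 and at 506.2, 423.5, 384.6 and 415.2 CPM in DKO mice 3, 9, 12 and 14. The lowest deficient mouse, IL10RAKO mouse 7, lay far above the highest WT mouse. The log2 fold change was 4.44 (SE 0.27, adjusted p = 3.04e-07 from edgeR) in IL10RAKO and 4.63 (SE 0.27, adjusted p = 1.71e-07) in DKO mice, or 21.6-fold and 24.8-fold.

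*Gbp5* (ENSMUSG00000105504.4, 142493978 to 142522344), linked to assembly of the NLRP3 inflammasome, was among the lowest members in WT mice, at 4.72, 13.4, 4.97 and 13.3 CPM. In IL10RAKO mice it was at 139.6, 306.0, 185.1 and 209.2 CPM and in DKO mice at 153.2, 182.0, 166.8 and 157.0 CPM. WT mice fell into a lower and a higher pair, and IL10RAKO mouse 2 stood above the other deficient mice. The log2 fold change was 4.54 (SE 0.37, adjusted p = 2.52e-06 from edgeR) in IL10RAKO and 4.19 (SE 0.37, adjusted p = 3.54e-06) in DKO mice.

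*Gbp7* (ENSMUSG00000040253.15, 142530342 to 142550149) and *Gbp3* (ENSMUSG00000028268.14, 142560026 to 142573209) were already well expressed in WT mice and rose by less. In WT mice *Gbp7*, a member with a part in resistance to intracellular bacteria, was at 71.7, 78.7, 57.6 and 103.9 CPM. IL10RAKO mice had 470.7, 354.3, 294.4 and 421.2 CPM and DKO mice 423.2, 411.1, 415.9 and 455.7 CPM. The DKO values lay close together, within the IL10RAKO range, and the log2 fold change was 2.31 (SE 0.20, adjusted p = 3.29e-06 from edgeR) in IL10RAKO and 2.45 (SE 0.20, adjusted p = 1.79e-06) in DKO mice. In WT mice *Gbp3* was at 81.1, 86.5, 101.5 and 101.7 CPM. IL10RAKO mice had 370.1, 304.8, 265.3 and 391.2 CPM and DKO mice 296.6, 313.9, 267.4 and 300.8 CPM. It had the smallest change of the cluster, with a log2 fold change of 1.84 (SE 0.16, adjusted p = 3.29e-06 from edgeR) in IL10RAKO and 1.67 (SE 0.16, adjusted p = 6.48e-06) in DKO mice. *Gbp2b*, which is not counted among the members, ranged over 35.5 to 69.2 CPM in WT mice, and over 315.1 to 541.2 CPM in those of the IL10RAKO group and 381.3 to 443.6 CPM in the DKO group, and its log2 fold changes were 3.02 (SE 0.22, adjusted p = 1.41e-06 from edgeR) and 2.94 (SE 0.22, adjusted p = 1.47e-06).

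On chromosome 5 (105014150 to 105346472, minus strand), the members changed over a wider range. *Gbp4* (ENSMUSG00000079363.7, 105115767 to 105139586), whose product is known to bind the transcription factor IRF7, was at 40.7, 56.2, 64.1 and 68.9 CPM in WT mice. It was at 400.5, 685.5, 348.8 and 381.8 CPM in IL10RAKO and at 376.5, 438.3, 417.3 and 356.1 CPM in DKO mice. IL10RAKO mouse 2 again stood above the rest, and the remaining deficient mice shared a range. The log2 fold change was 2.98 (SE 0.24, adjusted p = 2.29e-06 from edgeR) in IL10RAKO and 2.79 (SE 0.23, adjusted p = 2.36e-06) in DKO mice.

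*Gbp6* (ENSMUSG00000104713.4, 105270702 to 105293698), a member with a part in control of intracellular bacteria, was at 0.0477, 8.73, 6.21 and 13.0 CPM in WT mice. The first of these values is a single read in WT mouse 4, against 149 to 195 reads in the other 3. In IL10RAKO mice it was at 117.3, 168.2, 89.1 and 163.4 CPM and in DKO mice at 121.8, 161.5, 150.2 and 144.9 CPM, with no overlap with WT. Its log2 fold change was 4.28 (SE 0.70, adjusted p = 0.000771 from edgeR) in IL10RAKO and 4.39 (SE 0.70, adjusted p = 0.000572) in DKO mice, and without WT mouse 4 the values were 3.87 and 3.97.

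*Gbp8* (ENSMUSG00000034438.16, 105014150 to 105139540) was at 39.6, 57.8, 59.5 and 45.6 CPM in WT mice. IL10RAKO mice had 208.9, 214.5, 139.2 and 267.0 CPM and DKO mice 151.9, 165.9, 155.8 and 170.0 CPM, all above the WT mice. Its log2 fold change was 2.03 (SE 0.20, adjusted p = 1.02e-05 from edgeR) in IL10RAKO and 1.67 (SE 0.20, adjusted p = 4.75e-05) in DKO mice.

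*Gbp9* (ENSMUSG00000029298.15, 105077630 to 105139539) moved least of the members. WT mice had 63.3, 94.3, 81.2 and 84.8 CPM, IL10RAKO mice 120.3, 171.6, 119.4 and 97.9 CPM, and DKO mice 94.5, 126.4, 156.5 and 135.2 CPM. The lowest deficient mouse, DKO mouse 3, differed from WT mouse 5 by little. On the log2 scale the change was 0.65 (SE 0.20, adjusted p = 0.0416 from edgeR) in IL10RAKO and 0.66 (SE 0.20, adjusted p = 0.0349) in DKO mice. The call was lost in 8 of 12 fits that each left out 1 mouse for IL10RAKO and in 6 of 12 for DKO mice, with adjusted p up to 0.130 and 0.101. Without TMM scaling the log2 fold changes were 0.34 and 0.41, with adjusted p of 0.274 and 0.194.

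*Gbp10* and *Gbp11* were the lowest members in every group. *Gbp10* (ENSMUSG00000105096.1, 105215699 to 105239533) had 0, 4, 0 and 51 reads in WT mice 4, 5, 10 and 13, 67, 94, 63 and 65 reads in IL10RAKO mice 1, 2, 7 and 8, and 170, 39, 104 and 99 reads in DKO mice 3, 9, 12 and 14. WT mouse 13 alone brought WT into the range of the deficient mice. The fitted log2 change was 2.36 (SE 1.08, adjusted p = 0.166 from edgeR) in IL10RAKO and 2.77 (SE 1.10, adjusted p = 0.0961) in DKO mice. Both passed without WT mouse 13, at 5.91 (adjusted p = 0.000966) and 6.33 (adjusted p = 0.000519).

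*Gbp11* (ENSMUSG00000092021.8, 105323042 to 105346472), annotated in GENCODE vM21 as a polymorphic pseudogene, had 0, 0, 9 and 0 reads in the WT mice. It had 58, 94, 19 and 53 reads in IL10RAKO and 52, 36, 71 and 56 reads in DKO mice, so every deficient mouse lay above every WT mouse. The fitted log2 change was 5.00 (SE 1.01, adjusted p = 0.00367 from edgeR) in IL10RAKO and 4.85 (SE 1.01, adjusted p = 0.00396) in DKO mice. With 3 of 4 WT mice at 0 reads, the size of this change rests on WT mouse 10.

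Counts of neighbouring copies can be split or lost where sequence is shared. In GENCODE vM21, 64.5% of the 100-base stretches of *Gbp6* transcripts and 73.5% of those of *Gbp10* also occur in transcripts of another gene. They are shared largely with *Gm43302*, which overlaps exons of both and has no row in the table, and 37.3% of the *Gbp6* and 60.9% of the *Gbp10* stretches are shared with another family gene, chiefly each other. The values of *Gbp6* and *Gbp10* are therefore uncertain. For *Gbp7* the share was 10.0%, and for each of the remaining members it was 5.1% or less. Exons of *Gbp4*, *Gbp8* and *Gbp9* overlap by 60 to 61 bases.

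**Figure D2:**
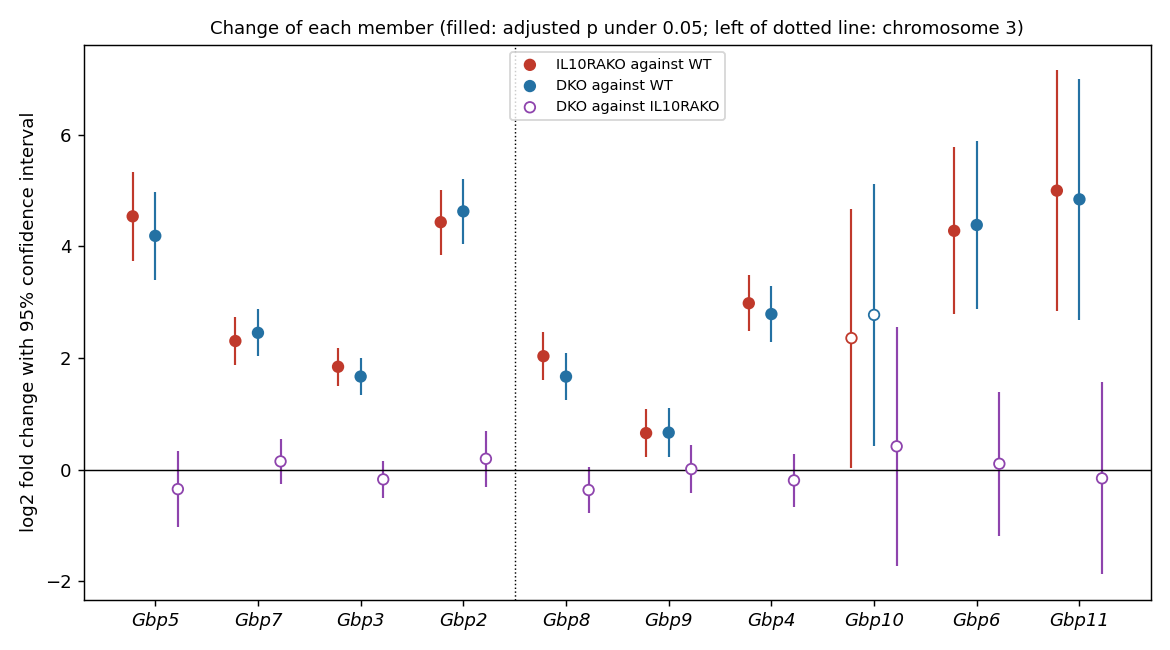
Log2 fold change of each member with its 95% confidence interval in the 3 comparisons, filled where the adjusted p was under 0.05. Red and blue points lie above 0 for all 10 members, from 0.65 for *Gbp9* to 5.00 for *Gbp11*, and the purple intervals of DKO against IL10RAKO mice all include 0.

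Loss of *Ccr2* in addition to *Il10ra* was compared in DKO against IL10RAKO mice. Of the 10 members, 0 passed the test (edgeR, adjusted p = 1.00 for each), where 0.0457% of all tested genes passed in either direction. An unadjusted p under 0.05 was found for 0 members and for 388 of all 13136 tested genes. At either share few or none of 10 genes would pass, so these counts say little about the members. DESeq2 likewise called 0. The log2 fold changes ran from −0.37 for *Gbp8* to 0.42 for *Gbp10*, 5 above 0 and 5 below, with a median of −0.07 beside −0.01 over all tested genes. For the chromosome 3 members the 95% intervals of the log2 change were −0.31 to 0.70 for *Gbp2*, −1.04 to 0.34 for *Gbp5*, −0.25 to 0.55 for *Gbp7* and −0.50 to 0.15 for *Gbp3*. On the linear scale, the *Gbp2* interval runs from 0.807-fold to 1.62-fold. On chromosome 5 they were −0.66 to 0.27 for *Gbp4*, −0.78 to 0.05 for *Gbp8* and −0.42 to 0.44 for *Gbp9*. The intervals of *Gbp6* (−1.18 to 1.39), *Gbp10* (−1.73 to 2.56) and *Gbp11* (−1.88 to 1.57) leave room for changes of more than 2-fold in either direction. Each interval gives the range of change that the fit allows for a member. It is not a limit of what 4 mice a group can detect.

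Levels were compared between members per kb of exon (TMM-scaled CPM divided by the length of the exons joined over all transcripts in GENCODE vM21). In WT macrophages *Gbp3* led at 28.4 ± 3.22 (mean ± SD, n = 4 mice). *Gbp9* (15.6 ± 2.51), *Gbp8* (14.7 ± 2.79) and *Gbp7* (13.9 ± 3.45) followed and overlapped each other from mouse to mouse, as did *Gbp4* (7.67 ± 1.65) and *Gbp2* (6.94 ± 1.77). *Gbp5* (1.37 ± 0.738) and *Gbp6* (1.17 ± 0.908) overlapped as well, and *Gbp10* and *Gbp11* were at 0.234 and 0.0346.

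In the deficient mice *Gbp2* moved from the sixth place to the first. It was at 150.3 ± 47.1 per kb in IL10RAKO and 171.9 ± 20.6 in DKO mice, followed by *Gbp3* (101.9 ± 17.8 and 90.2 ± 6.00), *Gbp7* (68.6 ± 13.7 and 76.0 ± 3.58), *Gbp4* (60.6 ± 20.8 and 53.0 ± 5.00) and *Gbp8* (60.2 ± 15.2 and 46.7 ± 2.46). *Gbp5*, *Gbp9* and *Gbp6* lay next, between 22.6 and 31.6 per kb on average in both genotypes, while *Gbp10* and *Gbp11* were at 1.16 and 1.33 in IL10RAKO and at 1.55 and 1.19 in DKO mice. In IL10RAKO mice each of the first 8 members overlapped its neighbour in this order from mouse to mouse, while in DKO mice *Gbp2*, *Gbp3*, *Gbp7* and *Gbp4* did not overlap each other. The order depends on the length used: with the longest coding length in place of the exon length, 15 of the 30 places in the 3 genotypes kept their member, and *Gbp4* led in IL10RAKO mice.

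**Figure D3:**
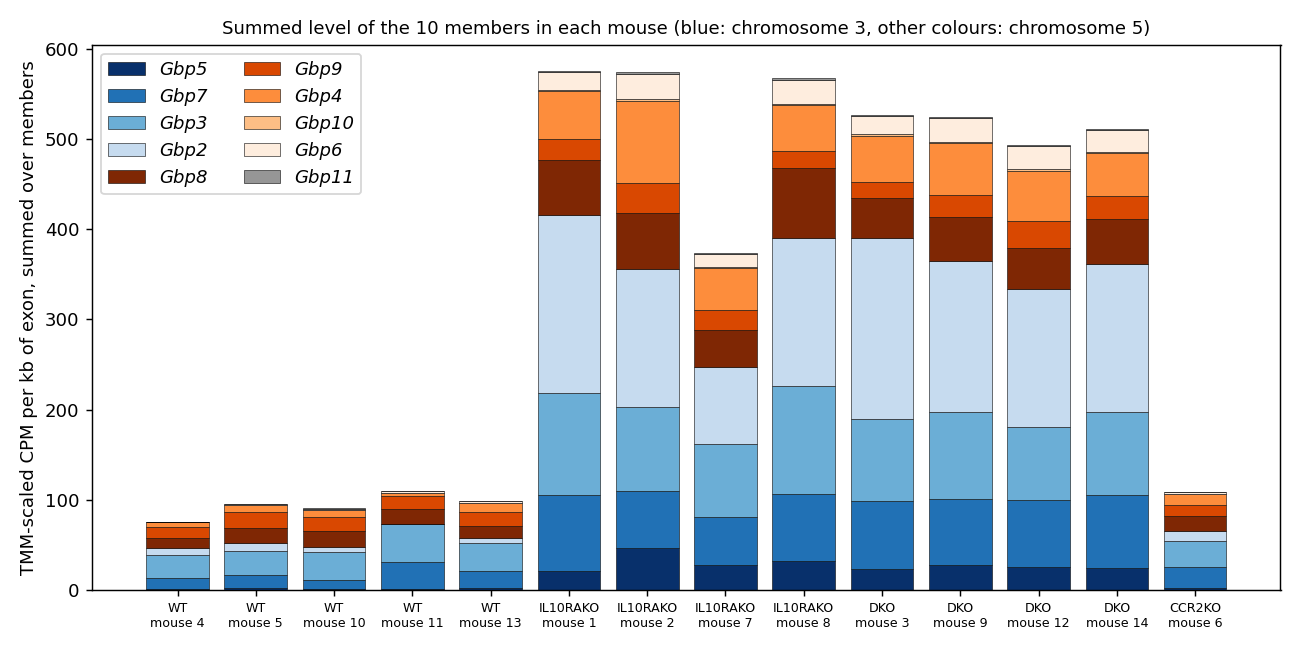
Summed level per kb of exon of the 10 members in each of 14 mice, stacked by member, with chromosome 3 members in blue. The 5 WT mice and the CCR2KO mouse sum to 75.5 to 109.1, and the 8 *Il10ra*-deficient mice to 373.6 to 576.2, with a larger *Gbp2* block.

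Summed over the members, WT mice reached 90.0 ± 10.3 per kb, IL10RAKO mice 523.0 ± 99.7 and DKO mice 514.4 ± 15.1 (mean ± SD over 4 mice each). The chromosome 3 members rose from 50.6 ± 4.85 to 352.5 ± 74.3 and 362.9 ± 23.1, and the chromosome 5 members from 39.5 ± 6.91 to 170.6 ± 38.6 and 151.5 ± 11.1. Chromosome 3 members made up 52.7 to 61.4% of the sum in the WT group, 61.9 to 72.3% in the IL10RAKO group and 67.6 to 74.1% in the DKO group. *Gbp2* alone accounted for 5.50 to 10.6% of the WT sums, 23.0 to 34.4% of the IL10RAKO sums and 30.9 to 38.2% of the DKO sums. WT mouse 11 had a chromosome 3 share of 67.2%, so with that mouse the WT and deficient ranges of this share overlap, and a *Gbp2* share of 0.293%.

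As fold changes rather than levels, the clusters overlapped. In IL10RAKO against WT mice the median log2 fold change was 3.37 for the 4 chromosome 3 members (1.84 to 4.54), all of which rose, and 2.67 for the 6 chromosome 5 members (0.65 to 5.00), of which 5 rose. In DKO against WT mice the medians were 3.32 (4 of 4 rose) and 2.78 (5 of 6 rose). The difference of the medians, 0.70 in IL10RAKO mice, was −0.47 without WT mouse 13, where *Gbp10* changes most, and a difference between the clusters was not tested. A different measure took, in each IL10RAKO mouse, the cluster medians of log2 level over the WT mean. Their difference ran from −0.48 to 0.33, which is not a spread around the fitted 0.70.

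Within a genotype, single mice were low or high for many members. IL10RAKO mouse 7 was lowest of its group for 8 of 10 members, all but *Gbp5* and *Gbp9*, and IL10RAKO mouse 2 was highest for 6, of which *Gbp5* lies on chromosome 3 and *Gbp4*, *Gbp6*, *Gbp9*, *Gbp10* and *Gbp11* on chromosome 5. WT mouse 4 was lowest for 8 of 10 members, with *Gbp10* and *Gbp11* at 0 reads in other WT mice too. In DKO mice no mouse was lowest for more than 4 or highest for more than 4 members, and the SD of the summed level was 15.1 per kb against 99.7 in IL10RAKO mice. These ranks are a description of 4 mice a group.

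The mice outside the main fit had a summed level per kb of 109.1 (WT mouse 11) and 108.7 (CCR2KO mouse 6). Both lay above the 4 WT mice (75.5 to 99.0) and below the deficient mice (373.6 to 576.2). In CCR2KO mouse 6, *Gbp2* was at 27.9 CPM, *Gbp5* at 14.4, *Gbp7* at 129.9 and *Gbp4* at 89.4, each above the 4 WT mice and below every deficient mouse, and the other 6 members were within the WT range. In WT mouse 11, 5 members were within the range of the 4 WT mice, 2 were above it (*Gbp3* at 137.5 CPM and *Gbp7* at 171.5) and 3 below it (*Gbp2* at 0.805 CPM, *Gbp5* at 2.49 and *Gbp4* at 26.8). With WT mouse 11 added to the fit, the count of members that rose remained 9 in each comparison.

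Genes of the same pathway were read from lists chosen with earlier results of these data known. Beside each count of a list stand the shares of all tested genes that rose, 8.70% in IL10RAKO and 9.23% in DKO mice. Of 19 interferon signalling genes, 7 rose and 0 fell in IL10RAKO and 9 rose and 0 fell in DKO mice against WT, and the medians of the log2 fold changes were 0.45 and 0.56. *Irf1*, which binds the ISRE, averaged 344.1 ± 80.5 CPM over the WT mice, 1161 ± 256 over the IL10RAKO and 1149 ± 243 over the DKO mice (SD, n = 4 each). It rose by 1.75 (SE 0.22, adjusted p = 9.93e-05 from edgeR) and 1.74 (SE 0.22, adjusted p = 8.90e-05) on the log2 scale. The receptor genes *Ifngr1* (0.38 and 0.16), *Ifngr2* (0.36 and 0.36), *Ifnar1* (0.31 and 0.12) and *Ifnar2* (0.24 and 0.01) did not pass, and are named because all 4 belong to 1 step of the pathway, a choice made after their values were seen.

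*Ifng*, the gene of interferon gamma, was at 0.573, 0.586, 3.56 and 2.33 CPM in WT mice 4, 5, 10 and 13. It was at 23.6, 20.3, 6.22 and 9.04 CPM in IL10RAKO mice 1, 2, 7 and 8 and at 43.1, 3.36, 7.16 and 8.40 CPM in DKO mice 3, 9, 12 and 14, so DKO mouse 9 lay below WT mouse 10. *Ifng* had a log2 fold change of 3.05 (SE 0.81, adjusted p = 0.0190 from edgeR) in IL10RAKO and 3.12 (SE 0.81, adjusted p = 0.0148) in DKO mice. The call was lost without WT mouse 5 (2.77, adjusted p = 0.0524) or IL10RAKO mouse 1 (2.74, adjusted p = 0.0540), and for DKO without mouse 3 (1.84, adjusted p = 0.0755). Markers of T and NK cells, which make interferon gamma, summed to 10.5 to 17.8 CPM in the WT group, 10.2 to 24.96 CPM in the IL10RAKO group and 8.43 to 35.5 CPM in the DKO group. The sum joins markers that moved in opposite directions. Means of *Nkg7* (1.86, 6.65 and 7.48 CPM in WT, IL10RAKO and DKO mice), *Cd3d*, *Cd3g* and *Cd8a* were higher in both deficient groups. Those of *Cd3e* (2.60, 1.15 and 0.788 CPM), *Ncr1* and *Klrb1c* were lower. The part of these cells in the *Ifng* values was not tested.

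The immunity-related GTPases, which act with GBPs at pathogen vacuoles, rose as a list: 8 of 8 passed in each comparison, and the medians were 2.89 and 2.90 on the log2 scale. *Tgtp1* rose by 5.55 (SE 0.45, adjusted p = 2.34e-06 from edgeR) and 5.48 (SE 0.45, adjusted p = 1.87e-06), and *Tgtp2* by 3.28 (SE 0.26, adjusted p = 2.34e-06) and 3.28 (SE 0.26, adjusted p = 1.79e-06). These are near-identical copies whose reads can be assigned to either.

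Of the 10 genes for ATG8 conjugation, the machinery that directs GBPs and immunity-related GTPases to vacuoles, 0 passed in IL10RAKO mice (edgeR, median 0.28), and in DKO mice 1 rose, *Gabarapl1* (0.61, adjusted p = 0.0331, named because it was the only one). Of the 10 inflammasome genes downstream of GBPs, 3 rose in each comparison. They were *Il1b* (2.14 and 1.79), *Gsdmd*, the pore-forming gasdermin D (1.14 and 1.01), and *Ninj1*, which acts in membrane rupture (1.13 and 1.07, named after its value was seen). *Il18* fell in DKO mice (−0.90, adjusted p = 0.0423), where *Casp4*, the mouse gene of caspase-11, was at −0.42 (adjusted p = 0.367) and in IL10RAKO mice at 0.32 (adjusted p = 0.519). Of 12 relatives in the dynamin superfamily, 11 were tested and 0 passed in any comparison (edgeR, median 0.04 and 0.02 against WT), among them the interferon-induced *Mx1* (0.46 and −0.18). The counts of the ATG8 and dynamin lists are near the shares of all tested genes that rose (8.70% and 9.23%) and say little about those lists. Between DKO and IL10RAKO mice, 0 genes of these 5 lists passed, where 0.0457% of all tested genes did.

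**Figure D4:**
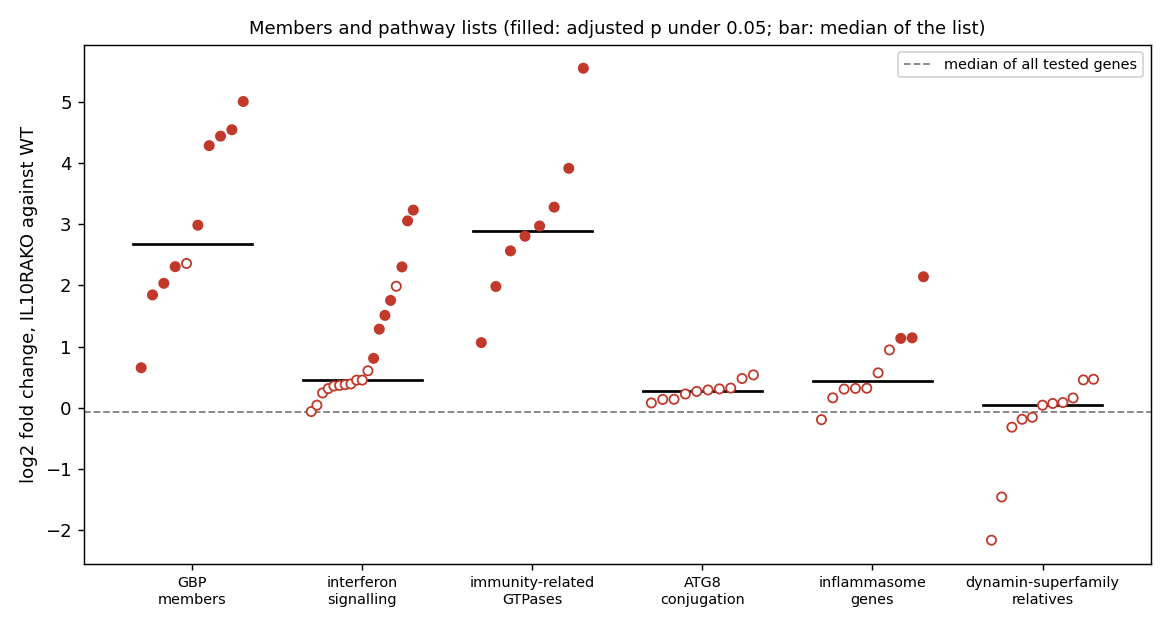
Log2 fold change of IL10RAKO against WT mice for the 10 members and for the genes of 5 pathway lists, filled where the adjusted p was under 0.05, with a bar at each median and a dashed line at the median of all tested genes (−0.07). The members (median 2.67) and the immunity-related GTPases (median 2.89) lie above the other lists, whose medians are 0.04 to 0.45.

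Genes outside the family with a similar pattern were sought with Pearson's r between log2 CPM and the mean of the members' centred log2 CPM over the 12 mice of the fit. The first 5 were *Clec7a* (r = 0.989), *Serpina3f* (0.988), *Nampt* (0.988), *Cd86* (0.986) and *Pla2g16* (0.985). Because the 12 libraries fall into WT and deficient mice, r was also taken over the 8 deficient mice, where it was 0.749, 0.378, 0.724, 0.716 and 0.653 in the same order. The members themselves had r of 0.820 (*Gbp9*) to 0.987 (*Gbp4*) with their own mean over 12 mice, and 0.365 (*Gbp9*) to 0.976 (*Gbp11*) over 8. That mean includes each member and is not scaled, so the members that vary most weigh most in it. *Gbp11* had only 19 to 94 reads in the 8 deficient mice. The points are libraries that differ in genotype and depth, and each library's depth enters the values of all its genes, so r is given as a description.

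Markers of the sorted cell were present in every mouse, with the 8 macrophage markers summing to 10486 to 12768 CPM in the WT group, 12193 to 17148 in the IL10RAKO group and 10900 to 13716 in the DKO group. Against WT, 1 rose and 0 fell in IL10RAKO, and 1 rose and 2 fell in DKO mice. Fibroblast markers summed to 294.0 to 576.6 CPM in the WT group, 15.0 to 53.6 in the IL10RAKO group and 16.1 to 66.9 in the DKO group, and 6 of 6 fell in each comparison, although the gate took CD45+ cells. Endothelial markers were at 122.8 to 548.4 CPM in WT and 70.5 to 118.8 in the deficient mice (1 and 2 of 4 fell), neutrophil markers at 1.67 to 7.92 and 4.95 to 92.8 CPM (2 of 3 tested rose in each). Of the tested T and NK cell markers, 0 passed in IL10RAKO and 1 of 6 rose in DKO mice. B and plasma cell markers (328.5 to 1644 CPM over the 12 mice) and epithelial markers (16.0 to 881.4 CPM) did not pass for any gene in either comparison. These differences moved with the rise of the members, and their part in it was not tested. Outside the main fit, WT mouse 11 had an epithelial sum of 2257 CPM (18.9 to 881.4 in the 4 WT mice). Its fibroblast, T and NK cell, and B and plasma cell sums lay below those mice. It also had the fewest genes with a read (11670). CCR2KO mouse 6 had a B and plasma cell sum of 2411 CPM (437.0 to 1644 in the 4 WT mice), with fibroblast and neutrophil sums also above them. Neither a batch nor the sex or litter of a mouse is given by the labels.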

How the data were processed

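Macrophages of 14 mice were sequenced as paired-end SmartSeq v4 cDNA. Per the labels and the paper's methods, the authors aligned reads to mm10 with STAR 2.5.1b and deposited a raw count of reads per gene for 24982 genes, without normalization. The authors also deposited edgeR pseudocounts, a score per gene adjusted to a common library size, for 13338 genes in 12 libraries, which served in an alternative only. Which annotation and strand option served for counting, and what was done with multiply aligned reads, is not given in the sources used here.

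Tests were run with edgeR 4.0.16 under R 4.3.3. The 12 libraries of the pseudocount table were fitted together (filterByExpr, minimum count 10, 13136 genes; TMM; glmQLFit and glmQLFTest with the deviance of edgeR 3), with Benjamini-Hochberg adjustment and a threshold of 0.05. Standard errors were derived from that fit, as the absolute log2 fold change over the square root of the F statistic. The 95% intervals follow from them with the t distribution. Both are approximate where a group has few reads. DESeq2 1.42.0 and limma 3.58.1 served as alternatives. WT mouse 11 was left out of the main fit and served in an alternative only, and CCR2KO mouse 6 entered no test. No pair of libraries of a genotype agreed within sampling noise (chi-square per degree of freedom 31.8 or more). P-values test a difference between genotypes against the spread between mice, which was estimated over the genotypes together and moderated across genes.

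The members, the pathway and marker lists and the tests were chosen with earlier results of these data known. The genes named were all members, *Gbp2b*, the targeted genes, *Ifng* and *Irf1*, and the 5 genes outside the family with the highest r. From each list came the 2 genes per direction with the smallest unadjusted p among those that passed in IL10RAKO mice. Other genes of the lists (*Casp4*, *Il18*, *Ninj1*, *Gabarapl1*, *Mx1* and the interferon receptors) and the T and NK cell markers were named after their values were seen. A gene that this rule also names and a promoter stretch are not reported here. Positions and lengths are from GENCODE vM21 (GRCm38), promoter windows from RefSeq. 0 columns of samples were left unused. Figures were drawn with Python 3.11.15 and matplotlib 3.10.9.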

Additional observations from a re-analysis of the deposited data

Results flagged for a closer look

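Log2(CPM + 1) values of the 10 members and *Gbp2b* were examined in 44 groups of 4 or 5 mice, and in 6 of them a mouse stood apart by Dixon's ratio. The nominal rate of this ratio, about 1 in 20, cannot be set against that count. Groups of 4 and of 5 WT mice share mice, so *Gbp10* and *Gbp11* below each count in both, and some groups hold mostly 0 reads. *Gbp2* in WT mouse 11 was at 0.85, against 3.87 in the nearest and 4.54 in the farthest WT mouse (11 reads against 206 to 424), while *Gbp2b* beside it had 986 reads in that mouse. *Gbp6* in WT mouse 4 was at 0.07 among 5 WT mice, against 2.85 in the nearest (1 read against 120 to 195), in a library with 1700 *Gbp3* reads. *Gbp10* in WT mouse 13 was at 2.14, against 0.30 in the nearest, both among 4 and among 5 WT mice. *Gbp11* in WT mouse 10 was at 0.46, against 0 in every other WT mouse, again among 4 and among 5.

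Libraries outside the main fit gave levels above those of the 4 WT mice. In CCR2KO mouse 6 these were *Gbp2* at 27.9 CPM (highest WT mouse 22.3), *Gbp5* at 14.4 (13.4), *Gbp7* at 129.9 (103.9) and *Gbp4* at 89.4 (68.9). In WT mouse 11 they were *Gbp2b* at 72.2 CPM (69.2), *Gbp3* at 137.5 (101.7) and *Gbp7* at 171.5 (103.9). Each is the value of 1 mouse, with no replicate.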

How the results depend on the processing

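The count of members that rose against WT, 9 in each comparison, ran from 6 to 10 for IL10RAKO and from 7 to 10 for DKO mice over the alternatives, and 0 members passed between DKO and IL10RAKO mice under any of them. The lowest counts came from a filter of 10 reads in every library, which left 7 members and at which *Gbp9* was lost in IL10RAKO mice (adjusted p = 0.0542). *Gbp9* and *Gbp10* were the members whose call changed otherwise: *Gbp9* was also lost in IL10RAKO mice when only the 2 genotypes compared were fitted (0.65, adjusted p = 0.0641), and *Gbp10* passed with the bias-adjusted deviance of edgeR 4 (2.60 and 3.03) and with limma on the deposited pseudocounts (4.22 and 4.50). Leaving out 1 mouse gave 8 to 9 members in each comparison. Without TMM scaling the median of all genes moved by −0.31 in IL10RAKO and −0.25 in DKO mice, and the members' median stood at 2.34 and 2.53 beside all-gene medians of −0.38 and −0.32.

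The difference between the cluster medians in IL10RAKO mice (0.70) was 1.34 with 10 reads required in every library, −0.225 on the pseudocounts and −0.468 to 0.904 when 1 mouse was left out, with the sign turned by WT mouse 13. Of 30 places in the order of levels, 15 kept their member with coding lengths, an alternative chosen after seeing the data, and 28 without TMM. Lengths of RefSeq proteins were not run. No paired analysis was possible because the labels give no litter or other number that pairs mice across the groups.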
